A study of Mus musculus with 16 samples.

Results

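The regulatory T cell program genes described here are Foxp3, Il2ra, Ikzf2, Il1rl1, Areg, Penk and Il10, chosen by name. They are 7 of the 24469 symbols and mitochondrial entries in the tables, and each gene is the sum of all entries that carry its symbol. They were read in 8 libraries of sorted CD45+ cells, in T cells with and without Foxp3 and in all other cells.

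Regulatory T cells are CD4 T cells that hold other immune cells in check, and Foxp3 is the transcription factor on which their identity rests. Many arise in the thymus, where the protein Aire lets epithelial cells display proteins of other tissues to developing T cells. In tissues and tumors, regulatory T cells often take on an activated state with more of the IL-2 receptor and with secreted products such as IL-10 and amphiregulin.

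All mice had the C57BL/6 background and were 8 weeks old, with the genotype Aire+/+ or Aire-/-. They bore tumors of MC38, a mouse colon adenocarcinoma line, and were given anti-PD1 (RMP1-14) or an isotype control antibody intraperitoneally at 5 mg per kg. Tumors and spleens were taken on day 19. Each tumor library combined tumors from 4 to 6 mice, spleens were pooled too, and tumors were dissociated with enzymes but spleens mechanically. Each tissue and condition gave 1 library, so no condition is replicated within a tissue. Genotype and treatment were not tested, and intervals given for them cover counting error only. Where 4 values are given, the 2 libraries of Aire+/+ mice come first, and within a genotype the isotype library precedes the anti-PD1 library.

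The tumor libraries held 2930, 2208, 1856 and 2075 cells with 38930017, 28760714, 24639370 and 23282799 UMIs. The splenic libraries held 2095, 2088, 2023 and 2393 cells with 12131827, 10927391, 11179227 and 12618095 UMIs. Median UMIs per cell were 11892, 11858.5, 12251.5 and 9889 in tumor and 4549, 4413.5, 4733 and 4502 in spleen, so every tumor library was deeper per cell than every splenic one. A UMI of Ptprc, which encodes CD45, was present in 90.9 to 96.6% of tumor cells and 87.6 to 90.2% of splenic cells. Aire itself had 0, 2, 1 and 0 UMIs in tumor and 2, 5, 4 and 0 in spleen, too few to check the genotype labels. Pairs of these libraries shared 3 to 16 cell barcodes, at most 0.791% of the smaller library.

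Foxp3 encodes the transcription factor that defines the lineage, and it set the gate here. A cell with at least 1 UMI of Cd3d, Cd3e or Cd3g was called Cd3+, and a Cd3+ cell with at least 1 Foxp3 UMI was called Foxp3+. In tumor, 175 of 423, 102 of 425, 51 of 413 and 89 of 1041 Cd3+ cells were Foxp3+. In spleen, 34 of 353, 46 of 439, 55 of 488 and 70 of 544 were. Foxp3+ cells thus made up 41.4, 24.0, 12.3 and 8.55% of the Cd3+ cells in tumor and 9.63, 10.5, 11.3 and 12.9% in spleen. Both Aire+/+ tumor libraries stood above both Aire-/- tumor libraries, and the 4 splenic libraries lay close together.

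The Aire-/- share over the Aire+/+ share in tumor was 0.298 (95% interval 0.214 to 0.410) in isotype mice and 0.356 (0.265 to 0.478) in anti-PD1 mice. Under anti-PD1 the share was 0.580 (0.450 to 0.745) of that under isotype in Aire+/+ tumor and 0.692 (0.485 to 0.997) in Aire-/- tumor. In spleen the genotype ratios were 1.17 (0.749 to 1.85) and 1.23 (0.835 to 1.82), with intervals that include 1. After every cell was thinned to 2000 UMIs and gated anew, as in all thinned values below, the tumor shares were 23.6, 18.0, 9.02 and 5.82%, in the same order of libraries.

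The size of the genotype ratio moved with the denominator. Among Cd3+ cells with Cd4 and no Cd8a or Cd8b1, Foxp3+ cells were 123 of 152, 69 of 104, 30 of 63 and 52 of 88 in tumor, or 80.9, 66.3, 47.6 and 59.1%. The genotype ratio over these cells was 0.588 (0.381 to 0.883) in isotype mice and 0.891 (0.609 to 1.30) in anti-PD1 mice. Over all cells of the library, Foxp3+ cells were 5.97, 4.62, 2.75 and 4.29% in tumor, with ratios of 0.460 (0.330 to 0.632) and 0.928 (0.691 to 1.25). In spleen the ratios over all cells were 1.68 (1.07 to 2.65) with isotype and 1.33 (0.902 to 1.97) with anti-PD1, so the first of these excluded 1. The direction with treatment in Aire-/- tumor turned with the denominator too, since over all cells and over cells with Cd4 and no Cd8 the share was higher under anti-PD1 than under isotype. A lower share in Aire-/- tumor was therefore present with each denominator under isotype, while under anti-PD1 the interval excluded 1 only among Cd3+ cells. The Aire-/- anti-PD1 tumor held 722 Cd3+ cells with Cd8a or Cd8b1 and no Cd4, against 135, 209 and 216 in the other tumor libraries.

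**Figure D1:**
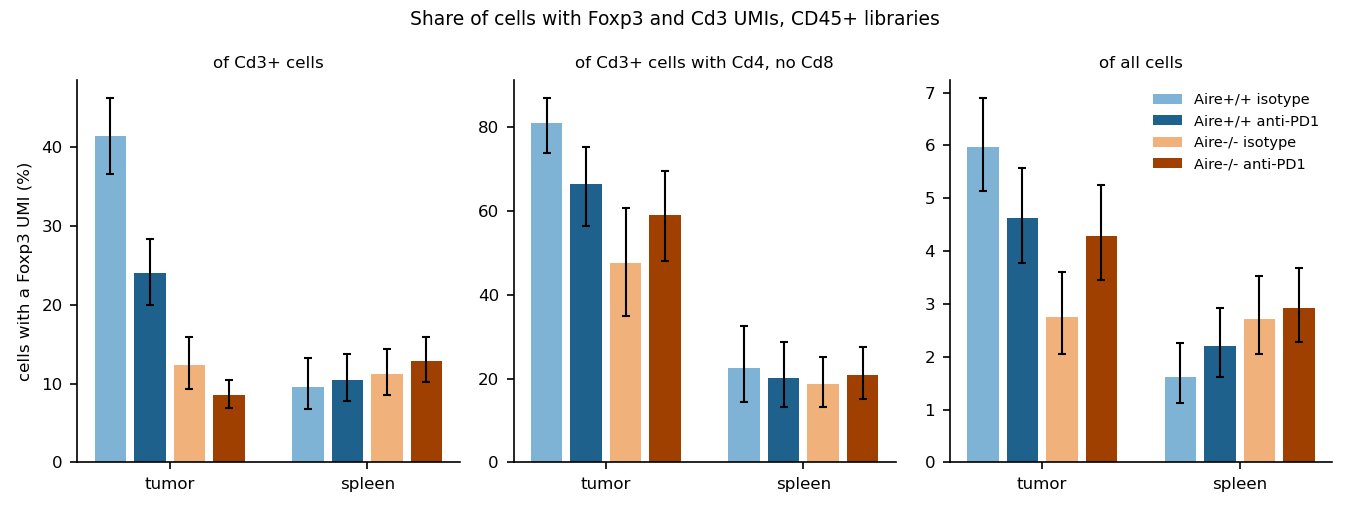
Percent of cells with a Foxp3 UMI in each of the 8 libraries over 3 denominators, with exact Clopper-Pearson 95% intervals. Over Cd3+ cells the tumor libraries run from 8.55 to 41.4% and the splenic ones from 9.63 to 12.9%.

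Foxp3 UMIs outside the gate were rare. Among cells with no Cd3 UMI, 0.519, 0.337, 0.277 and 0.193% had a Foxp3 UMI in tumor and 0.172, 0.182, 0.195 and 0.162% in spleen. In tumor macrophages and monocytes, which should lack Foxp3, 23 of 5316 cells had a UMI (0.433%) at a median depth of 12443 UMIs, against 8724 in tumor Foxp3+ cells. In splenic B cells it was 8 of 5776 cells (0.139%) at a median depth of 4282 UMIs, against 4507 in splenic Foxp3+ cells. A Cd4 UMI was present in 81.1, 74.5, 70.6 and 67.4% of tumor Foxp3+ cells and in 61.8, 58.7, 63.6 and 61.4% of splenic ones. A UMI of Cd8a or Cd8b1 was present in 22, 15, 8 and 16 of the tumor Foxp3+ cells and in 2, 7, 3 and 12 of the splenic ones. Foxp3+ cells carried a median of 4, 4, 5 and 5 Foxp3 UMIs in tumor.

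Some tumor Foxp3+ cells also carried macrophage markers. At least 3 of the 5 markers Lyz2, C1qb, Csf1r, Cd68 and Msr1 were present in 41, 11, 10 and 3 of the tumor Foxp3+ cells, or 23.4, 10.8, 19.6 and 3.37%. Summed over the list, these markers stood at 1457, 1785, 1999 and 63.6 CPM (UMIs per 1000000 UMIs of the cells summed) in tumor Foxp3+ cells, with C1qb or Lyz2 the most abundant. Without those cells the sums were 58.3, 49.98, 99.95 and 37.4 CPM, and Csf1r or Msr1 was at 0 in each library. In spleen, 1, 1, 3 and 4 Foxp3+ cells carried as many B cell markers. Tumor Cd3+ cells without a Foxp3 UMI carried as many macrophage or B cell markers in 16.9, 9.29, 13.3 and 5.88% of cells, so this was not particular to Foxp3+ cells. With such cells left out of both libraries, the log2 ratios of Aire-/- to Aire+/+ in tumor Foxp3+ cells that left their 95% counting interval were those of Penk under isotype (from -0.17 to 0.14) and of Il2ra, Ikzf2 and Areg under anti-PD1 (to 0.18, -0.22 and -1.14). Those of Il1rl1 and Il10 under isotype went to -0.21 and 0.49, within wider intervals.

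Il2ra encodes the alpha chain of the IL-2 receptor, which gives regulatory T cells high affinity for IL-2. In tumor Foxp3+ cells it stood at 758, 818, 854 and 1068 CPM, and in splenic Foxp3+ cells at 198, 151, 175 and 82.5 CPM. Every tumor library lay above every splenic library. Fitted over the 4 conditions, the tumor level was higher by 2.65 ± 0.23 on the log2 scale (SE; edgeR quasi-likelihood test, Benjamini-Hochberg adjusted p = 5.57e-07, higher in 4 of 4 conditions). Of the 6 genes other than Foxp3, 4 were called higher in tumor Foxp3+ cells, beside 18.1% of all genes tested, and 0 were called lower, beside 15.1%. With 15 and 6 splenic UMIs, Areg and Il10 passed the filter on low counts through tumor and could only be called higher. At an unadjusted p under 0.05 edgeR also put 0 of the 6 lower, and DESeq2 gave the same calls. Without the Aire+/+ anti-PD1 condition 1274 genes were called either way, against 1925 with it, and the same 4 of the 6 genes were called.

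The tissue difference in Il2ra was also present as a share of cells. An Il2ra UMI was present in 93.7, 96.1, 96.1 and 84.3% of tumor Foxp3+ cells and in 67.6, 30.4, 38.2 and 22.9% of splenic ones. After thinning to 2000 UMIs the shares were 74.4, 80.0, 73.5 and 60.7% in tumor and 40, 20.6, 25.6 and 16% in spleen. The tissues did not overlap at either depth. For comparison, 8.41% of tumor macrophages and monocytes and 0.727% of splenic B cells had an Il2ra UMI.

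Cd3+ cells without a Foxp3 UMI, called Foxp3- below, held less Il2ra. In tumor 1261 of them had Cd8 and no Cd4, 133 had Cd4 and no Cd8, and 491 were neither of these. In spleen the numbers were 644, 441 and 534. The mix of CD4 and CD8 cells thus differed between gates and between tissues in the comparisons below. Foxp3- cells may also include regulatory T cells in which Foxp3 was not detected. Il2ra in Foxp3- cells stood at 105, 113, 93.6 and 90.9 CPM in tumor and at 9.61, 23.6, 12.6 and 18.9 CPM in spleen. In both tissues every Foxp3+ sum lay above every Foxp3- sum. The difference was 3.02 ± 0.14 in tumor and 2.96 ± 0.27 in spleen on the log2 scale (SE; edgeR quasi-likelihood test, Benjamini-Hochberg adjusted p = 6.05e-06 and 1.67e-07, higher in 4 of 4 libraries each). In tumor, 6 of the 6 genes other than Foxp3 were called higher in Foxp3+ cells, beside 10.9% of all genes tested, and 0 lower, beside 8.74% (1882 genes either way, 1113 without the Aire+/+ anti-PD1 library and 1179 without the Aire+/+ isotype library), and in spleen 5 of the 5 that could be tested were, beside 6.34%, and 0 lower, beside 6.02%. Areg, Penk and Il1rl1 had 3, 7 and 28 UMIs in splenic Foxp3- cells and could only be called higher in Foxp3+ cells there. With 68 UMIs in tumor Foxp3- cells, Il1rl1 passed the filter through Foxp3+ cells in tumor too and could only be called higher. Il10 stood at 2.70 CPM in 1 tumor Foxp3- sum and did not pass through the Foxp3- sums alone. Without the Aire+/+ anti-PD1 or the Aire+/+ isotype tumor library Penk was not called in tumor, and among cells with Cd4 and no Cd8 Penk, Il10 and Il1rl1 were not called in tumor. These comparisons use the same Foxp3+ sums as the tissue comparison.

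Foxp3- cells showed the tissue difference as well. Their Il2ra was higher in tumor by 2.69 ± 0.16 on the log2 scale (SE; edgeR quasi-likelihood test, Benjamini-Hochberg adjusted p = 2.26e-07, higher in 4 of 4 conditions). Il2ra, Areg and Penk were the 3 of 5 tested genes called higher in tumor Foxp3- cells, beside 30% of all genes tested, and 0 were lower, beside 29.8% (59.8% either way). Areg and Penk, with 3 and 7 splenic UMIs there, passed the filter through tumor and could only be called higher. A direct fit of whether the difference between Foxp3+ and Foxp3- cells itself changed with tissue gave 0.05 for Il2ra on the log2 scale. In that edgeR quasi-likelihood fit with Benjamini-Hochberg adjustment, none of the 6 genes was called, beside 2.59% of 9970 genes tested. Penk was the gene under an unadjusted p of 0.05 there.

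Other cells of the tumor also held Il2ra. Summed over the 4 tumor libraries, it was present in 110 of 200 mature dendritic cells (55.0%, 159 CPM), 144 of 623 NK cells (23.1%, 49.5 CPM) and 447 of 5316 macrophages and monocytes (8.41%, 14.6 CPM). These classes are cells with no Cd3 UMI and at least 3 of 5 markers of the class. Foxp3+ cells held 49.9% of all tumor Il2ra UMIs, Foxp3- cells 24.7%, macrophages and monocytes 13.0%, NK cells 5.03% and mature dendritic cells 4.97%. Per library, Foxp3+ cells held 1616 of 2571, 957 of 1910, 565 of 1482 and 924 of 2172 Il2ra UMIs. In macrophages and monocytes Il2ra stood at 13.1, 15.5, 20.5 and 5.58 CPM, lowest in the Aire-/- anti-PD1 tumor. In mature dendritic cells it stood at 168, 253, 160 and 98.2 CPM, again lowest in that library.

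By genotype, Il2ra in tumor Foxp3+ cells was 1.13 (1.02 to 1.24) times as high in Aire-/- as in Aire+/+ under isotype and 1.31 (1.19 to 1.43) times under anti-PD1. Under isotype the 5 cells with the most Il2ra UMIs held 40.2% of them in the Aire-/- library and 11.4% in the Aire+/+ library. Neither direction held when each cell was thinned to 2000 UMIs, where the log2 ratios were -0.0327 and -0.16. In spleen the Il2ra level under anti-PD1 was 0.472 (0.291 to 0.754) of that under isotype in Aire-/- Foxp3+ cells, on 30 and 52 UMIs.

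The list of other IL-2 receptor axis genes held Il2, Il2rb, Il2rg, Jak1, Jak3, Stat5a, Stat5b, Cish, Socs1, Bcl2 and Pim1. In Foxp3+ cells of tumor over spleen, 4 of 10 tested were called higher and 4 lower, with a median log2 fold of 0.22 against -0.04 over all genes. The target gene Cish was higher by 1.34 and Pim1 by 1.27, and Bcl2 was lower at -3.26. For Foxp3+ against Foxp3- cells, 1 was called higher and 3 lower in tumor (median 0.14), and 7 higher and 2 lower in spleen (median 0.47). In Foxp3- cells of tumor over spleen, 6 were higher and 3 lower (median 0.71). Il2 itself did not pass the filter on low counts in these comparisons.

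Ikzf2 encodes Helios, an Ikaros family zinc finger factor that helps to keep the regulatory T cell state stable. In Foxp3+ cells it stood at 350, 403, 360 and 404 CPM in tumor and at 416, 459, 494 and 531 CPM in spleen. Every splenic library lay above every tumor library, the opposite order to Il2ra. The fitted difference was small, at -0.24 ± 0.13 on the log2 scale (SE; edgeR quasi-likelihood test, Benjamini-Hochberg adjusted p = 0.172, higher in tumor in 0 of 4 conditions). It changed sign when cells were thinned to 2000 UMIs, to 0.18 (adjusted p = 0.502 in the same edgeR fit with Benjamini-Hochberg adjustment, within 0.121 to 0.746 over all alternatives).

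Foxp3- cells held 54.6, 69.9, 52.4 and 40.4 CPM of Ikzf2 in tumor and 40.4, 56.2, 40.7 and 64.1 CPM in spleen. Foxp3+ sums lay above all of these. Ikzf2 was higher in Foxp3+ than in Foxp3- cells by 2.73 ± 0.14 in tumor and 3.03 ± 0.12 in spleen on the log2 scale (SE; edgeR quasi-likelihood test, Benjamini-Hochberg adjusted p = 8.80e-06 and 1.23e-12, higher in 4 of 4 libraries each). In Foxp3- cells the tissues overlapped, and the log2 fold of tumor over spleen was 0.14 ± 0.16 (SE; edgeR quasi-likelihood test, Benjamini-Hochberg adjusted p = 0.494, higher in 3 of 4 conditions). Without the Aire-/- anti-PD1 condition it was 0.42 (adjusted p = 0.00683 in the same test), within a range of 0.00683 to 0.861 over the conditions left out in turn.

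An Ikzf2 UMI was present in 94.9, 93.1, 94.1 and 88.8% of tumor Foxp3+ cells and in 61.8, 76.1, 72.7 and 85.7% of splenic ones. Thinned to 2000 UMIs, the shares were 61.1, 68.6, 58.8 and 66.1% in tumor and 45.0, 41.2, 56.4 and 64.0% in spleen, so the tissues overlapped at equal depth. The background share was 1.45% in tumor macrophages and monocytes and 0.0519% in splenic B cells. Between genotypes Ikzf2 moved little in tumor Foxp3+ cells, with ratios of 1.03 (0.885 to 1.19) in isotype mice and 1.0005 (0.869 to 1.15) in anti-PD1 mice. Outside T cells, Ikzf2 was present in 115 of 623 tumor NK cells (18.5%, 25.6 CPM) and in 16 of 32 splenic mast cells and basophils (50.0%, 158 CPM).

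Of the Ikaros family genes Ikzf1, Ikzf2, Ikzf3, Ikzf4 and Ikzf5, 3 of 5 were called higher in Foxp3+ over Foxp3- cells in tumor and 0 lower (median 0.84). In spleen 2 were higher and 1 lower (median -0.06). Ikzf4, which encodes Eos, was higher by 1.61 in tumor and 3.74 in spleen. For tumor over spleen, 0 were higher and 1 lower in Foxp3+ cells (median -0.24), and 1 was higher and 2 lower in Foxp3- cells (median -0.24).

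Il1rl1 encodes ST2, the receptor for the alarmin IL-33, and marks tissue regulatory T cells. It had 67, 55, 14 and 17 UMIs in tumor Foxp3+ cells and 8, 8, 10 and 26 in splenic ones, or 31.4, 47.0, 21.2 and 19.7 CPM in tumor and 37.8, 34.6, 33.6 and 71.5 CPM in spleen. The tissues overlapped. The log2 fold of tumor over spleen was -0.57 ± 0.33 (SE; edgeR quasi-likelihood test, Benjamini-Hochberg adjusted p = 0.204, higher in 1 of 4 conditions). A UMI was present in 12.0, 18.6, 3.92 and 10.1% of tumor Foxp3+ cells and in 14.7, 8.70, 12.7 and 15.7% of splenic ones, and in 0.301% of tumor macrophages and monocytes and 0.0173% of splenic B cells. Thinned to 2000 UMIs, the shares were 7.78, 5.71, 2.94 and 8.93% in tumor and 15.0, 2.94, 7.69 and 4% in spleen.

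In Foxp3- cells Il1rl1 stood at 2.96, 8.25, 4.19 and 1.30 CPM in tumor and at 4.81, 1.34, 3.95 and 1.82 CPM in spleen. Foxp3+ cells lay above them by 2.84 ± 0.28 in tumor and 3.71 ± 0.41 in spleen on the log2 scale (SE; edgeR quasi-likelihood test, Benjamini-Hochberg adjusted p = 0.000236 and 1.81e-06, higher in 4 of 4 libraries each). With 28 UMIs in splenic Foxp3- cells and 68 in tumor ones, Il1rl1 passed the filter through Foxp3+ cells in both tissues. In these fits it could only be called higher in Foxp3+ cells. That difference in tumor was not present among cells with Cd4 and no Cd8, where it was -0.53 (adjusted p = 0.613 in the same edgeR fit with Benjamini-Hochberg adjustment, within 3.64e-11 to 0.613 over all alternatives). The tumor Foxp3- cells with Cd4 and no Cd8 were few, at 29, 35, 33 and 36, and 17 of these 133 cells had an Il1rl1 UMI. In Foxp3- cells of tumor over spleen the log2 fold was 0.45 ± 0.48 (SE; edgeR quasi-likelihood test, Benjamini-Hochberg adjusted p = 0.434, higher in 2 of 4 conditions). It was -0.24 without the Aire+/+ anti-PD1 condition.

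Under anti-PD1, Il1rl1 in tumor Foxp3+ cells was 0.418 (0.228 to 0.731) times as high in Aire-/- as in Aire+/+, but thinned to 2000 UMIs the ratio was 1.56, on 5 and 4 UMIs. Under isotype it was 0.674 (0.350 to 1.21) times, and 13 of the 14 UMIs in the Aire-/- isotype library came from 1 cell. Mast cells and basophils were few, yet 7 of 13 in tumor and 10 of 32 in spleen held Il1rl1, at 177 and 76.0 CPM. Of the IL-33 receptor axis genes Il33, Il1rap, Myd88, Irak1, Irak4, Traf6 and Gata3, 1 of 5 tested was called higher for tumor over spleen in Foxp3+ cells and 0 lower, with Myd88 at 0.93 (median 0.25). In Foxp3+ over Foxp3- cells Gata3 was the gene called in both tissues, at 0.45 in tumor (1 of 6 tested, median 0.08) and 0.73 in spleen (1 of 5 tested, median -0.09). Foxp3- cells of tumor over spleen had 2 of 6 higher and 1 lower (median 0.34).

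**Figure D2:**
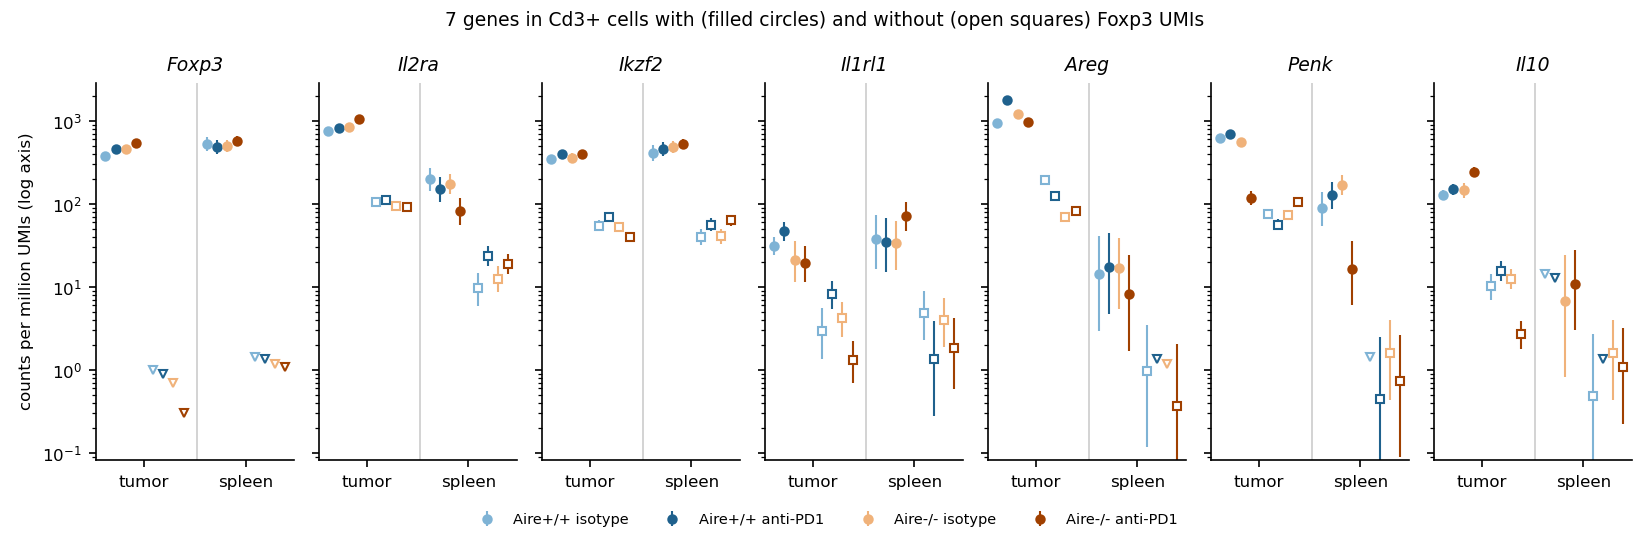
Level of each of the 7 genes in CPM on a log axis in Foxp3+ cells (filled circles) and Foxp3- cells (open squares) of each library, with exact Poisson 95% intervals; open triangles mark the level of 3 counts where a sum held 0 UMIs. Areg, Il2ra and Il10 stand higher in every tumor library than in every splenic one in Foxp3+ cells, and Ikzf2 does not.

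Areg encodes amphiregulin, a secreted ligand of the EGF receptor with a part in tissue repair. Its UMIs in Foxp3+ cells numbered 2005, 2093, 798 and 851 in tumor and 3, 4, 5 and 3 in spleen. These are levels of 940, 1789, 1207 and 984 CPM in tumor and 14.2, 17.3, 16.8 and 8.25 CPM in spleen. All tumor libraries stood far above all splenic ones. The log2 fold was 6.53 ± 0.22 (SE; edgeR quasi-likelihood test, Benjamini-Hochberg adjusted p = 6.48e-11, higher in 4 of 4 conditions), and the ratio of the summed counts was 87.6 (53.1 to 157). Areg passed the filter on low counts through tumor here, so the test could only call it higher in tumor.

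As a share of cells, Areg was present in 56.6, 55.9, 51.0 and 57.3% of tumor Foxp3+ cells and in 8.82, 4.35, 5.45 and 2.86% of splenic ones. Thinned to 2000 UMIs the shares were 42.2, 41.4, 38.2 and 46.4% in tumor and 0, 2.94, 5.13 and 4% in spleen. The 4 tumor libraries were alike in this share and stood apart from spleen at both depths. The 0 comes from 20 thinned cells of the Aire+/+ isotype spleen. Tumor macrophages and monocytes themselves held Areg in 5.17% of cells, and 0 of 5776 splenic B cells did, with an exact 95% upper limit of 0.0638%.

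Foxp3- cells held 194, 126, 69.0 and 81.3 CPM of Areg in tumor and 0.961, 0, 0 and 0.364 CPM in spleen. The tissues did not overlap there either. Tumor over spleen was 8.42 ± 0.24 on the log2 scale (SE; edgeR quasi-likelihood test, Benjamini-Hochberg adjusted p = 1.89e-09, higher in 4 of 4 conditions), and the ratio of 2126 to 3 UMIs was 328 (112 to 1594). That call could only be higher, as Areg passed the filter through tumor. Foxp3+ cells stood above Foxp3- cells by 3.36 ± 0.29 in tumor and 4.91 ± 0.76 in spleen (SE; edgeR quasi-likelihood test, Benjamini-Hochberg adjusted p = 0.000114 and 0.000102, higher in 4 of 4 libraries each). The splenic comparison rests on 15 against 3 UMIs, a ratio of 43.5 (12.3 to 234).

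Areg in tumor was spread over several cell types. Foxp3+ cells held 48.6% of its tumor UMIs, macrophages and monocytes 25.5%, Foxp3- cells 18.0% and mature dendritic cells 4.59%, summed over libraries that differ. Per library, Foxp3+ cells held 2005 of 3763, 2093 of 3407, 798 of 2120 and 851 of 2544 Areg UMIs. All cells with no Cd3 UMI together held 1168, 887, 1026 and 880, more than Foxp3+ cells in both Aire-/- tumors. Among Foxp3- cells with Cd4 and no Cd8, 43 of 133 had a UMI (32.3%, 528 CPM), against 107 of 1261 with Cd8 and no Cd4 (8.49%, 64.0 CPM). In macrophages and monocytes Areg stood at 34.5, 35.1, 52.6 and 69.4 CPM, higher in both Aire-/- tumors. There the ratio of Aire-/- to Aire+/+ was 1.52 (1.39 to 1.67) in isotype mice and 1.98 (1.76 to 2.22) in anti-PD1 mice. In spleen 15 of all 19 Areg UMIs lay in Foxp3+ cells.

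In tumor Foxp3+ cells the highest Areg level was that of the Aire+/+ anti-PD1 library. Anti-PD1 over isotype was 1.90 (1.79 to 2.02) in Aire+/+ and 0.815 (0.740 to 0.899) in Aire-/-. Aire-/- over Aire+/+ was 1.28 (1.18 to 1.39) in isotype mice and 0.550 (0.507 to 0.596) in anti-PD1 mice. The ratios of the share of cells with Areg had intervals that include 1, at 0.988 (0.700 to 1.38) and 1.12 (0.688 to 1.88) for treatment and 0.901 (0.561 to 1.40) and 1.03 (0.689 to 1.52) for genotype. Whether the treatment change differs between genotypes was not tested.

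A few cells held much of the Areg. The cell with the most Areg UMIs held 118, 347, 224 and 75 in the tumor libraries, and the top 5 cells held 23.2, 42.1, 61.0 and 33.1% of the UMIs. With the top cell of each library left out, the genotype ratio was 1.0001 under isotype and 0.598 under anti-PD1. Under isotype the genotype difference in level thus rested on the top cell, and under anti-PD1 it did not. The lower level with anti-PD1 in Aire-/- also rested on it, with 896 CPM under isotype and 920.01 CPM under anti-PD1 without the top cells.

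**Figure D3:**
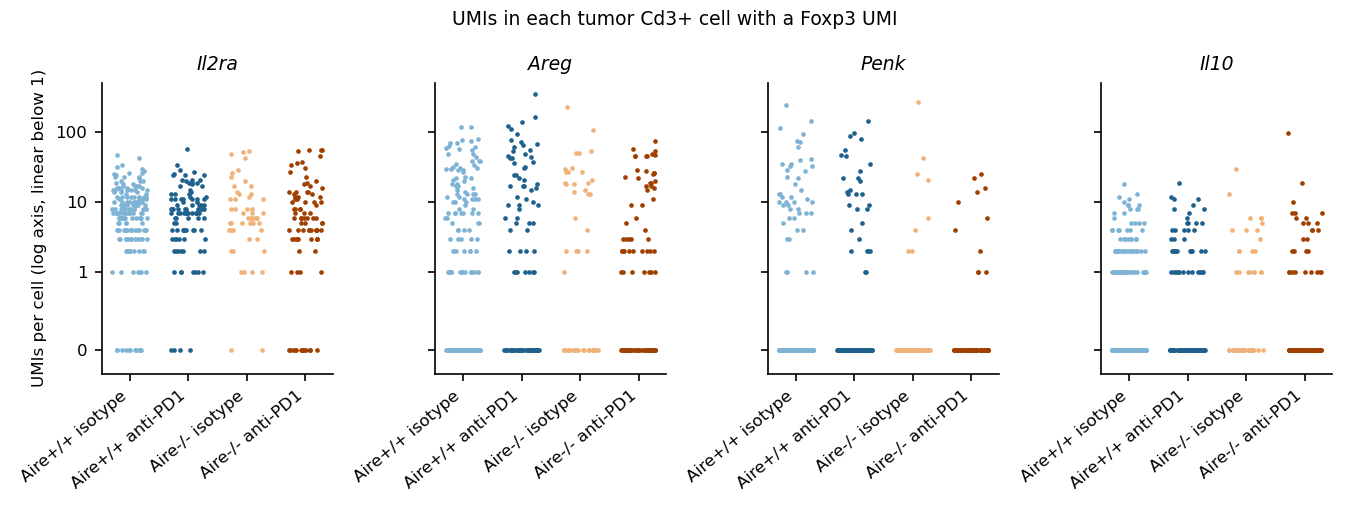
UMIs per tumor Foxp3+ cell of Il2ra, Areg, Penk and Il10 in each tumor library, with 1 point per cell. The cell with the most Areg held 347 UMIs and the cell with the most Penk held 267.

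The genes of the EGF receptor axis were Egfr, Erbb2, Erbb3, Adam17, Hbegf, Ereg, Btc, Tgfa and Epgn. Most did not pass the filter on low counts in Cd3+ cells. In Foxp3+ cells of tumor over spleen 1 of 9 was tested and 0 called (Adam17, which encodes the protease that releases amphiregulin, at 0.78). For Foxp3+ against Foxp3- cells 0 of 2 were called in tumor (median 0.70) and 0 of 1 in spleen (-0.07), and in Foxp3- cells of tumor over spleen 1 of 1 was called higher (Adam17 at 0.34).

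Tissue dissociation differed between tumor and spleen, and a list of dissociation response genes moved with the tissue comparison of Areg. The genes Fos, Fosb, Jun, Junb, Egr1, Atf3, Dusp1, Hspa1a, Hspa1b and Nr4a1 summed to 7752, 5663, 7237 and 4246 CPM in tumor Foxp3+ cells and to 959, 935, 984 and 769.6 CPM in splenic ones, with Junb the most abundant in each library. All 8 tested were called higher in tumor Foxp3+ cells and 0 lower (median log2 fold 3.90, unchanged with Fosb and Atf3 at their lower bounds). Fosb and Atf3 had 0 UMIs in splenic Foxp3+ cells. Against a floor of 3 counts over the group, they were at least 30.2-fold and 100.4-fold higher in tumor. With 12 splenic UMIs, Fos passed the filter through tumor too, so Fos, Fosb and Atf3 could only be called higher. In Foxp3- cells 9 of 10 were higher and 0 lower (median 3.77), where Fosb, with 5 splenic UMIs, could only be called higher. For Foxp3+ against Foxp3- cells, 0 of 10 were called in tumor (median -0.20), and 4 of 8 were higher and 0 lower in spleen (median 0.30). The part of dissociation in the tissue differences of Areg and the other genes was not tested, and tissue and dissociation cannot be told apart.

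Penk encodes proenkephalin, the precursor of the enkephalin opioid peptides. In Foxp3+ cells it stood at 631, 690, 559 and 118 CPM in tumor and at 89.7, 130, 171 and 16.5 CPM in spleen. The Aire-/- anti-PD1 library was the lowest in each tissue. Within each condition tumor was higher, but the tissues overlapped, since the Aire-/- anti-PD1 tumor lay below the Aire+/+ anti-PD1 and Aire-/- isotype spleens. The log2 fold of tumor over spleen was 2.40 ± 0.19 (SE; edgeR quasi-likelihood test, Benjamini-Hochberg adjusted p = 2.15e-07, higher in 4 of 4 conditions).

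Only a minority of Foxp3+ cells had a Penk UMI, at 26.3, 29.4, 15.7 and 12.4% in tumor and 8.82, 6.52, 10.9 and 4.29% in spleen. Every tumor library lay above every splenic one in this share, which rests on 3, 3, 6 and 3 splenic cells. Thinned to 2000 UMIs the shares were 16.7, 25.7, 8.82 and 12.5% in tumor and 5, 0, 10.3 and 4% in spleen, and the tissues overlapped. Background was low, with Penk in 19 of 5316 tumor macrophages and monocytes (0.357%) and 0 of 5776 splenic B cells.

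Foxp3- cells held 76.4, 56.6, 73.4 and 106 CPM of Penk in tumor and 0, 0.446, 1.58 and 0.728 CPM in spleen. The tissue difference in them was 6.78 ± 0.25 on the log2 scale (SE; edgeR quasi-likelihood test, Benjamini-Hochberg adjusted p = 9.69e-09, higher in 4 of 4 conditions), with 1798 against 7 UMIs and a ratio of 119 (57.6 to 296). Penk passed the filter through tumor there, so the call could only be higher. In spleen Foxp3+ cells stood above Foxp3- cells by 6.69 ± 0.43 (SE; edgeR quasi-likelihood test, Benjamini-Hochberg adjusted p = 1.16e-09, higher in 4 of 4 libraries). Of all 115 splenic Penk UMIs, 106 lay in Foxp3+ cells (92.2%).

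In tumor the contrast between Foxp3+ and Foxp3- cells was smaller for Penk, at 2.44 ± 0.50 on the log2 scale (SE; edgeR quasi-likelihood test, Benjamini-Hochberg adjusted p = 0.00960, higher in 4 of 4 libraries). It was 2.04 without the Aire+/+ anti-PD1 library and 2.202 without the Aire+/+ isotype library (adjusted p = 0.0756 and 0.0603 in the same edgeR fit with Benjamini-Hochberg adjustment). With each library left out in turn it reached up to 3.06. In the Aire-/- anti-PD1 tumor Foxp3+ and Foxp3- cells stood close, at 118 and 106 CPM. Over all alternatives the adjusted p ran from 4.57e-07 to 0.0756. The direct comparison of tissues gave a log2 difference of -4.33 ± 1.17 for Penk (SE; edgeR quasi-likelihood test, Benjamini-Hochberg adjusted p = 0.0733), so the smaller contrast in tumor did not pass the threshold. In each tissue Foxp3+ cells were higher in 4 of 4 libraries.

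Tumor Penk outside Foxp3+ cells lay almost wholly in other T cells. Foxp3+ cells held 58.9% of tumor Penk UMIs and Foxp3- cells 40.4%, with 0.494% in macrophages and monocytes. These shares are summed over libraries that differ. Per library, Foxp3+ cells held 1346 of 1598, 807 of 1001, 370 of 692 and 102 of 1164 Penk UMIs. In the Aire-/- anti-PD1 tumor Foxp3- cells held more, at 1059. Of Foxp3- cells with Cd8 and no Cd4, 85 of 1261 had a UMI (6.74%, 120 CPM), as did 9 of 133 with Cd4 and no Cd8 (6.77%, 84.3 CPM). In the former it stood at 115, 59.2, 117 and 140 CPM across the tumor libraries, highest in the Aire-/- anti-PD1 tumor, the library in which Foxp3+ cells held the least.

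By genotype, Penk in tumor Foxp3+ cells was 0.171 (0.138 to 0.210) times as high in Aire-/- as in Aire+/+ under anti-PD1, with 11 of 89 against 30 of 102 cells and a ratio of shares of 0.420 (0.190 to 0.863). After thinning the ratio of levels was 0.271. Penk and Il1rl1 were the 2 of 6 genes at least 2-fold lower, beside 5.64% of genes with at least 20 UMIs over both libraries, and 0 of 6 were at least 2-fold higher, beside 2.73% (8.37% either way). The Il1rl1 ratio turned to 1.56 when cells were thinned. Under isotype the Penk ratio was 0.886 (0.788 to 0.995), but it turned to 1.37 as a mean over cells and to 1.10 without doublet-like cells, and 0 of 6 genes were past 2-fold, beside 8.41% (5.6% lower and 2.81% higher). Anti-PD1 over isotype was 1.09 in Aire+/+, where 0 of 6 genes were past 2-fold beside 5.04% (3.43% lower and 1.6% higher). In Aire-/- it was 0.211 (0.168 to 0.263), and Penk was the 1 of 6 genes at least 2-fold lower, beside 7.19%, and 0 were higher, beside 4.83% (12% either way). The size of that fall with treatment rested on 1 cell of the isotype library, since without the top cells the Aire-/- levels were 158 CPM under isotype and 91.2 CPM under anti-PD1, under 2-fold apart. After thinning they were 294 and 259 CPM.

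The Penk counts of the Aire-/- isotype tumor rested on few cells. The top cell held 267 of 370 UMIs and the top 5 cells 97.8%, against 49.7, 57.5 and 85.3% in the Aire+/+ isotype, Aire+/+ anti-PD1 and Aire-/- anti-PD1 tumors. With the top cell of each library left out, the genotype ratio was 0.302 under isotype and 0.159 under anti-PD1. The ratio under isotype therefore moved with 1 cell, and that under anti-PD1 was as far from 1 without it. In splenic Foxp3+ cells Penk under anti-PD1 was 0.127 (0.0432 to 0.310) times as high in Aire-/- as in Aire+/+, on 6 and 30 UMIs in 3 cells each, with 21 of the 30 in 1 cell.

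The opioid axis genes Oprm1, Oprd1, Oprk1, Pdyn, Pomc, Pcsk1, Pcsk2 and Cpe, the receptors for these peptides, other precursors and processing enzymes, had few UMIs. They summed to 71, 18, 18 and 12 UMIs in tumor Foxp3+ cells and to 2, 4, 1 and 0 in splenic ones. The processing enzyme gene Pcsk1 had 63 UMIs in tumor Foxp3+ cells, 0 in splenic ones and 4 in tumor Foxp3- cells, and Cpe had 43, 1 and 18. The other 6 genes had at most 8 UMIs each in tumor Foxp3+ cells. Of the 8 genes, 0 passed the filter on low counts in any comparison.

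Il10 encodes interleukin 10, a secreted cytokine that dampens inflammation. Its UMIs in Foxp3+ cells numbered 276, 176, 97 and 209 in tumor and 0, 0, 2 and 4 in spleen, at 129, 150, 147 and 242 CPM in tumor and 0, 0, 6.72 and 10.995 CPM in spleen. Every tumor library stood above every splenic one. The log2 fold was 5.09 ± 0.34 (SE; edgeR quasi-likelihood test, Benjamini-Hochberg adjusted p = 5.16e-08, higher in 4 of 4 conditions), and the ratio of the summed counts was 28.9 (13.2 to 79.0). With so few splenic UMIs the test could only call Il10 higher in tumor.

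A UMI of Il10 was present in 46.3, 44.1, 43.1 and 32.6% of tumor Foxp3+ cells and in 0, 0, 3.64 and 2.86% of splenic ones. For the 0 of 34 and 0 of 46 splenic cells the exact 95% upper limits are 10.3% and 7.71% of cells, and a floor of 3 cells is 8.82% and 6.52%. Thinned to 2000 UMIs, the tumor shares were 16.7, 21.4, 23.5 and 14.3%, and the splenic ones 0, 0, 2.56 and 4%. Splenic B cells had a UMI in 0.139% of cells.

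Foxp3- cells held 10.2, 15.6, 12.6 and 2.70 CPM of Il10 in tumor and 0.480, 0, 1.58 and 1.09 CPM in spleen. Foxp3+ cells lay above them in tumor by 4.12 ± 0.45 on the log2 scale (SE; edgeR quasi-likelihood test, Benjamini-Hochberg adjusted p = 0.000400, higher in 4 of 4 libraries). Among cells with Cd4 and no Cd8 the difference was 0.82 (adjusted p = 0.517 in the same edgeR fit with Benjamini-Hochberg adjustment, within 5.18e-08 to 0.517 over all alternatives). In those Foxp3- cells Il10 was present in 22 of 133 (16.5%, 94.0 CPM), against 10 of 1261 with Cd8 and no Cd4 (0.793%, 1.52 CPM). In spleen 6 UMIs in Foxp3+ and 8 in Foxp3- cells fell below the filter on low counts and were not tested. Nor was the tissue comparison of Foxp3- cells, where the ratio of 165 to 8 UMIs was 9.56 (4.74 to 22.5).

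Macrophages and monocytes also held Il10 in tumor. They had 41.4% of its tumor UMIs, Foxp3+ cells 47.7% and Foxp3- cells 10.4%, summed over libraries that differ. Per library, Foxp3+ cells held 276 of 496, 176 of 418, 97 of 337 and 209 of 338 Il10 UMIs. All cells with no Cd3 UMI together held 189, 189, 186 and 102, more than Foxp3+ cells in the Aire+/+ anti-PD1 and Aire-/- isotype tumors. A UMI was present in 228 of 5316 macrophages and monocytes (4.29%), and their level was 6.35, 9.28, 11.9 and 14.2 CPM. Both Aire-/- tumors lay above both Aire+/+ tumors there. The ratio of Aire-/- to Aire+/+ was 1.88 (1.52 to 2.31) in isotype mice and 1.53 (1.19 to 1.96) in anti-PD1 mice. Tumor NK cells had 1 UMI in 623 cells, and mature dendritic cells had 0 in 200 cells.

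In tumor Foxp3+ cells Il10 was 1.13 (0.890 to 1.43) times as high in Aire-/- as in Aire+/+ under isotype and 1.61 (1.31 to 1.97) times under anti-PD1. In the Aire-/- anti-PD1 tumor 1 cell held 97 of the 209 UMIs, and with the top cell of each library left out the ratio was 0.841 under isotype and 0.964 under anti-PD1, so both turned. The share of cells went the other way under anti-PD1, with a ratio of 0.739 (0.447 to 1.20).

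Of the IL-10 axis genes Il10ra, Il10rb, Jak1, Tyk2, Stat3, Socs3, Maf and Prdm1, 5 of 8 were called higher in tumor over spleen in Foxp3+ cells and 1 lower (median 0.84). Stat3 was higher by 1.05 and Socs3, which IL-10 signals induce through Stat3, by 1.91. In Foxp3+ over Foxp3- cells 2 of 8 were higher and 1 lower in tumor (median 0.08), with Maf, a transcription factor for Il10, at 3.58 and Prdm1 at 1.77. In spleen 1 of 7 was higher and 1 lower (median 0.25), with Maf at 2.66. In Foxp3- cells of tumor over spleen 4 of 8 were higher and 1 lower (median 0.91).

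**Figure D4:**
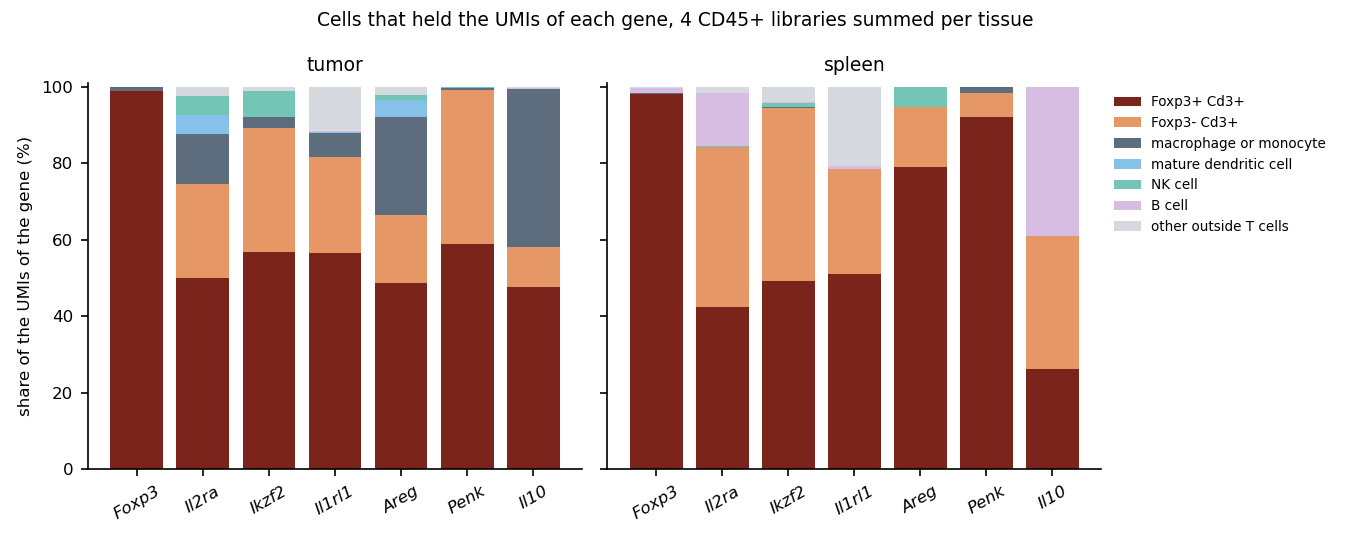
Percent of all UMIs of each of the 7 genes that fell in each group of cells, for tumor and for spleen. Summed over the tumor libraries, macrophages and monocytes held 41.4% of the Il10 UMIs and 25.5% of the Areg UMIs, but 0.494% of the Penk UMIs.

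Within single tumor Foxp3+ cells the genes were found in combination. The most frequent number of the 6 genes other than Foxp3 with a UMI in a cell was 3 in every tumor library, in 38.3, 38.2, 52.9 and 47.2% of cells. In spleen it was 1, in 35.3, 50.0, 45.5 and 50.0% of cells. All 46 Penk-positive Foxp3+ cells of the Aire+/+ isotype tumor and all 30 of the Aire+/+ anti-PD1 tumor had an Il2ra UMI, as did 7 of 8 and 10 of 11 in the Aire-/- tumors. Areg and Il10 were both present in 42, 29, 9 and 16 tumor Foxp3+ cells, and Areg and Penk in 32, 17, 4 and 8. Deeper cells show more genes, so these counts describe detection.

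Over 60 sums of cells, each 1 cell group of 1 library with at least 20 cells, the genes with the pattern most like each of the 6 genes other than Foxp3 were found among 11087 genes. The measure was the Pearson correlation of log2(CPM + 10), given as a description since the sums share libraries and depth. For Il2ra they were Tnfrsf4 (0.916), Mir155hg (0.883) and Sdf4 (0.867). For Ikzf2 they were Icos (0.909), Rora (0.900) and Smco4 (0.892). Areg was most like Fam110a (0.918), Fam132a (0.874) and Got1 (0.869). For Penk the genes were Arnt2 (0.878), Lamc1 (0.872) and Sdcbp2 (0.855). Il10 was most like Sv2c (0.840), Cttn (0.838) and Lrrc32 (0.828). Il1rl1 was most like Ncmap (0.846), Neb (0.837) and Tbc1d30 (0.832). Foxp3 is left out here, since the gate fixes it at 0 in Foxp3- sums. Between members other than Foxp3, the correlations ran from 0.429 for Areg and Ikzf2 to 0.848 for Areg and Il2ra. Areg and Il10 stood at 0.791, and Areg and Il1rl1 at 0.506.

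Further lists place the 7 genes within T cell biology. Of the regulatory T cell signature genes Ctla4, Tnfrsf18, Tnfrsf4, Tnfrsf9, Icos, Ikzf4, Lrrc32, Nt5e, Entpd1, Itgb8, Ebi3, Nrp1, Gpr83, Izumo1r and Tigit, 10 of 15 were called higher and 4 lower in tumor over spleen in Foxp3+ cells (median 1.42). For Foxp3+ against Foxp3- cells 12 of 14 tested were higher and 1 lower in tumor (median 1.99), and 13 of 14 higher and 0 lower in spleen (median 2.99). For tumor over spleen in Foxp3- cells 11 of 12 were higher and 1 lower (median 2.36). The genes lower in tumor Foxp3+ cells were Nt5e, Nrp1, Gpr83 and Izumo1r, and Nrp1 was also at 2.55 in spleen and -0.68 in tumor for Foxp3+ over Foxp3- cells. Itgb8 had 12 UMIs in splenic Foxp3+ cells and Gpr83 had 3 in tumor ones. For tumor over spleen Itgb8 could therefore only be called higher and Gpr83 only lower. Lrrc32, with 12 UMIs in splenic Foxp3- cells, could only be called higher in splenic Foxp3+ cells.

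Of the effector and tissue regulatory T cell genes Gata3, Rora, Pparg, Batf, Irf4, Prdm1, Maf, Klrg1, Ccr8, Itgae, Il1r2, Tnfrsf8, Gzmb and Cd44, 11 of 13 tested were higher and 0 lower in tumor over spleen in Foxp3+ cells (median 1.51), with Ccr8 at 2.92. In Foxp3+ over Foxp3- cells 12 of 13 were higher and 0 lower in tumor (median 1.48), and 9 of 11 higher and 0 lower in spleen (median 1.88). In Foxp3- cells of tumor over spleen 9 of 12 were higher and 0 lower (median 1.502). Tnfrsf8 had 9 UMIs in splenic Foxp3+ cells and 28 in tumor Foxp3- cells. In both comparisons with tumor Foxp3+ cells it could only be called higher there.

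Of the Foxp3 partners and regulators Runx1, Runx3, Cbfb, Foxp1, Foxo1, Foxo3, Nfatc1, Nfatc2, Tet2, Ezh2, Usp7 and Stub1, 3 of 11 tested were higher and 4 lower in tumor over spleen in Foxp3+ cells (median -0.45). In Foxp3+ over Foxp3- cells 2 of 12 were higher and 2 lower in tumor (median 0.13), and 1 higher and 2 lower in spleen (median -0.01). In Foxp3- cells of tumor over spleen 3 of 12 were higher and 6 lower (median -0.21). Medians over all genes tested were -0.04 and -0.04 for tumor over spleen in Foxp3+ and Foxp3- cells, and 0.01 and -0.01 for Foxp3+ over Foxp3- cells in tumor and spleen. Beside the counts of every list above, 18.1% of all genes were called higher and 15.1% lower for tumor over spleen in Foxp3+ cells. In Foxp3- cells these shares were 30 and 29.8%. For Foxp3+ over Foxp3- cells they were 10.9 and 8.74% in tumor and 6.34 and 6.02% in spleen. In every list, a gene with few UMIs in 1 group passed the filter on low counts through the other group. Such a gene could only be called in the direction of that other group.

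By position in build GRCm38.p6, Foxp3 lies at chrX:7579676-7595243, Il2ra at chr2:11642792-11693194 and Areg at chr5:91139599-91148432. Penk lies at chr4:4133536-4138815. Ikzf2 (chr1:69531207-69687351), Il1rl1 (chr1:40404864-40465418) and Il10 (chr1:131019845-131024970) share a chromosome. Foxp3 overlaps Flicr and Ccdc22, and Il2ra overlaps Gm39760, so their reads may not be fully separate. RefSeq promoter sequences were matched for 4 of the 7 genes, Areg, Foxp3, Il1rl1 and Il2ra, and 250 bases before each of their 6 starts were searched on both strands. The letters searched were TGANTCA (AP-1), TGACGTCA (the cAMP response element) and TTCNNNGAA (STAT) and a form of the NF-kB motif, present in 6.75, 1.55, 7.02 and 3.86% of 32851 RefSeq windows of that length. Only that form of the NF-kB motif was searched, and sites of other forms were not. A window without a match to it, such as that of Il2ra, may therefore still hold an NF-kB site. The windows that held a match are shown, that of Areg because its tissue difference was the largest of the 6 genes in Foxp3+ cells. Capitals mark TGACGTCA at Areg (chr5:91139349-91139598, plus strand) and TTCNNNGAA at the second Foxp3 start (chrX:7580233-7580482, plus strand), each a description of letters and not of binding.
Areg: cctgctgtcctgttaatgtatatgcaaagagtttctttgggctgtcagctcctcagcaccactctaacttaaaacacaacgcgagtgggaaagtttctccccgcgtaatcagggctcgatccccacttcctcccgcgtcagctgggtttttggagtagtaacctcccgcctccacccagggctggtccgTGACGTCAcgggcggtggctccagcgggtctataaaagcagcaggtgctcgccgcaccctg
Foxp3, second start: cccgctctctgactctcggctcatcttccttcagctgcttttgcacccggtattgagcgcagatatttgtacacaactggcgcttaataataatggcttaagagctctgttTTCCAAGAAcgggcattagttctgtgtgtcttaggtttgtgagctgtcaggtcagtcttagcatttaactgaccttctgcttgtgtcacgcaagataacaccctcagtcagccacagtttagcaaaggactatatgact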

How the data were processed

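Single-cell RNA was counted per gene and cell barcode, and the deposited tables hold UMI counts (unique molecular identifiers) that the authors made with Cell Ranger against the mouse genome GRCm38. Counts of table entries that carry the same symbol were summed. Cells with at least 200 genes and at most 20% mitochondrial UMIs were kept, and the entries for vector sequences were left out.

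Cells were gated on UMIs of Cd3d, Cd3e and Cd3g (at least 1 over the 3 genes) and of Foxp3 (at least 1), so Foxp3 and the Cd3 genes are not read as differences between gates. Cells with no Cd3 UMI were classed by at least 3 of 5 markers. Libraries were grouped by their labels for tissue, genotype and treatment. UMIs were summed per library and gate and compared with the edgeR 4.0.16 quasi-likelihood test (TMM, filterByExpr) in R 4.3.3, with Benjamini-Hochberg adjustment over all genes tested and a call at an adjusted p under 0.05. The condition was the block for tumor over spleen, and the library was the block for Foxp3+ over Foxp3- cells.

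Genotype and treatment, with 1 library per condition and tissue, were not tested, and their ratios carry conditional exact 95% intervals, levels exact Poisson intervals and shares exact Clopper-Pearson intervals, for counting error alone. Alternatives were DESeq2 1.42.0, no filter, no block, other gates, doublet-like cells left out, each condition left out in turn, and cells thinned to 2000 UMIs (seed 1). Python 3.11.15 with numpy 2.4.6, scipy 1.17.1, pandas 2.3.3 and matplotlib 3.10.9 did the rest.

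The named genes are the 7 genes, the genes of each list as printed, of which those given with a value were picked after their values were seen, and the 3 genes most like each gene other than Foxp3 by Pearson correlation. The 7 genes and the lists were chosen with earlier results of these data known. Libraries of CD8+ sorted cells were kept out of the comparisons.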

Additional observations from a re-analysis of the deposited data

Results flagged for a closer look

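The 8 libraries of CD8+ sorted cells were not used in the comparisons, and 4 of the 7 genes had UMIs there in tumor Foxp3- Cd3+ cells above the limit that a count of 0 allows. These libraries held 2512, 2142, 1788 and 2184 such cells in tumor and 2780, 2865, 2282 and 2537 in spleen, in the order used above. Il2ra was present in 52.8, 52.5, 48.5 and 43.0% of these cells in tumor and in 1.19, 0.628, 1.10 and 1.10% in spleen. Ikzf2 was present in 32.6, 30.2, 21.2 and 17.3% in tumor and in 4.24, 4.19, 4.16 and 5.01% in spleen. Both genes were present in more cells in each tumor library than in any splenic one.

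Areg was present in 6.49, 10.7, 9.51 and 12.0% of the cells in tumor and in 0, 0, 0.0876 and 0% in spleen. Penk was present in 9.32, 9.66, 6.38 and 7.92% in tumor and in 0.0360, 0.0698, 0.219 and 0% in spleen. After thinning to 2000 UMIs per cell the tumor shares were 3.16, 5.19, 5.15 and 6.27% for Areg and 5.03, 5.05, 3.92 and 3.8004% for Penk. Thinned, Il2ra stood at 17.9, 17.4, 17.8 and 15.4% in tumor and Ikzf2 at 9.87, 8.23, 6.60 and 3.89%, against at most 0.425% and 1.77% in spleen.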

How the results depend on the processing

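Of 156 log2 folds of the genes under alternatives other than leaving out a condition, 152 kept their direction and their side of the threshold. With cells thinned to 2000 UMIs, Ikzf2 in Foxp3+ cells of tumor over spleen was 0.18. Among cells with Cd4 and no Cd8, Foxp3+ over Foxp3- cells in tumor gave 2.33 for Penk, 0.82 for Il10 and -0.53 for Il1rl1 (edgeR quasi-likelihood test, Benjamini-Hochberg adjusted p = 0.0643, 0.517 and 0.613, where the ranges over alternatives start at 4.57e-07, 5.18e-08 and 3.64e-11). Fewer cells and genes enter the fit there, and the cause was not tested.

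With each condition left out in turn, 79 of 83 folds kept direction and call. For tumor over spleen in Foxp3+ cells they ran from 2.28 to 2.91 for Il2ra, -0.25 to -0.19 for Ikzf2, 6.39 to 6.66 for Areg, 2.29 to 2.71 for Penk, 4.85 to 5.72 for Il10 and -0.89 to -0.06 for Il1rl1. For Foxp3+ over Foxp3- cells in tumor they ran from 2.83 to 3.11 for Il2ra, 2.53 to 2.84 for Ikzf2, 3.12 to 3.73 for Areg, 2.04 to 3.06 for Penk, 3.34 to 4.47 for Il10 and 2.57 to 3.10 for Il1rl1. In spleen they ran from 2.64 to 3.32 for Il2ra, 2.92 to 3.12 for Ikzf2, 6.39 to 7.13 for Penk and 3.16 to 4.05 for Il1rl1. For Foxp3- cells of tumor over spleen they ran from 2.51 to 2.85 for Il2ra, 0.0387 to 0.42 for Ikzf2, 8.03 to 9.18 for Areg, 6.47 to 7.56 for Penk and -0.24 to 0.83 for Il1rl1. A sign changed for Il1rl1 without the Aire+/+ anti-PD1 condition (-0.24). Calls changed for Ikzf2 without Aire-/- anti-PD1 (0.42) and for Penk in tumor without Aire+/+ anti-PD1 (2.04) or Aire+/+ isotype (2.202).

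Numbers of genes called for tumor over spleen in Foxp3+ cells, for Foxp3+ over Foxp3- cells in tumor and in spleen, and for tumor over spleen in Foxp3- cells ran from 1274 to 1838, 1113 to 1803, 735 to 965 and 5076 to 5795 with a condition left out. Thinned, they were 541, 713, 420 and 2856, with fewer genes tested (1383, 4663, 4523 and 6609). DESeq2 gave 1134 in the 1st of these and 651 in the 3rd. With Cd4 and no Cd8, the numbers were 118 in tumor and 447 in spleen.

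The ratio of Foxp3+ shares of Aire-/- to Aire+/+ in tumor moved with the denominator, to 0.588 under isotype and 0.891 under anti-PD1 among cells with Cd4 and no Cd8, and to 0.460 and 0.928 over all cells. The other 24 of 28 values stayed within the main interval.

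Log2 ratios of the genes between genotypes in tumor Foxp3+ cells changed sign in 14 of 60 cases. In 8 of these the main 95% interval excluded 0, and in 19 other cases, some with a sign change, the value left the main interval. Thinned, under isotype, Il2ra was -0.0327, Ikzf2 0.53, Penk -0.70 and Il1rl1 -2.06, and under anti-PD1 Il2ra was -0.16, Ikzf2 -0.25, Areg -0.50, Penk -1.89, Il10 -0.63 and Il1rl1 0.64. As a mean over cells, under isotype, Il2ra was -0.0174, Penk 0.45 and Il1rl1 -1.73, and under anti-PD1 Il2ra was 0.11, Areg -0.52 and Il10 0.27. With doublet-like cells left out, Penk was 0.14 under isotype, and Il2ra 0.18, Ikzf2 -0.22 and Areg -1.14 under anti-PD1. With at least 2 Foxp3 UMIs required, Areg was 0.50 under isotype. Without the top cell of each library, an alternative chosen after seeing the data, Areg was 0.00011, Penk -1.73, Il10 -0.25 and Il1rl1 -3.90 under isotype, and Areg -0.74 and Il10 -0.053 under anti-PD1. The cause of these changes was not tested. The fit of the tissue difference was also chosen after seeing the data.

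Some alternatives gave no value. In spleen this was so for Areg with at least 2 Cd3 UMIs, thinned, with any condition left out and among cells with Cd4, and for Penk thinned and among cells with Cd4. Il1rl1 gave none when thinned, or in Foxp3- cells without Aire-/- isotype. Spleen was shallower than tumor, and its low counts of Areg, Il10 and Il1rl1 limit what can be compared.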
